A study of Mus musculus with 4 samples.

Results

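The HoxD cluster is a row of 9 homeobox genes on mouse chromosome 2, and all 9 were found by symbol among the 25239 genes of the deposited count table. Expression was measured by RNA sequencing in 2 populations of hindlimb bud cells from FVB mouse embryos at embryonic day 11.5, with 2 libraries of each. Both populations came from embryos of wild-type genotype that carried the reporter hsp68-hZRS(404G>A)-mCherry at the H11 safe-harbour site. This reporter makes mCherry, a red fluorescent protein, under the control of a human ZRS (the limb enhancer of Shh) that carries a single base change, joined to the hsp68 promoter. The anterior population was dissected from the anterior part of the bud and sorted as mCherry positive, and the central population came from its central part and was sorted as mCherry negative. Library totals were 30080925 to 33257383 counts. Position and reporter activity therefore differ together between the populations and cannot be told apart. How many embryos gave each library is not given in the sources used here, so p-values measure only the spread between these libraries, which may be technical.

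HOX proteins are transcription factors that bind DNA through a homeodomain and give cells of the embryo their position. In developing limbs the HoxD genes are switched on in the order in which they lie on the chromosome, with the 3′ genes (low numbers) used early and in the proximal limb and the 5′ genes (high numbers) used late and in the hand and foot plate. Separate regulatory landscapes on either side of the cluster serve these phases, the one beyond Hoxd1 for the proximal limb and the one beyond Evx2 and Lnpk for the digits. Of the digit genes, Hoxd13 has the widest domain and reaches the front-most digit, from which Hoxd12 and Hoxd11 are largely kept out. The repressor form of GLI3 restrains the 5′ genes in anterior cells, and SHH relieves that restraint in posterior cells.

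In GENCODE M21 on GRCm38, the build that the submitters name as mm10, the cluster runs from chr2:74668310-74765142, a span of 96.8 kb. All 9 genes are read from the plus strand, with Hoxd13 at the 5′ end and Hoxd1 at the 3′ end. Evx2, a homeobox gene known to share digit enhancers with Hoxd13, lies 8.75 kb beyond Hoxd13 on the minus strand. The exons of Hoxd1, Hoxd8, Hoxd9, Hoxd12, Hoxd13 and Evx2 overlap no other gene's exons in that annotation. By contrast, 62.3% of the exonic bases of Hoxd3 and 52.3% of those of Hoxd4 are shared with another gene on the same strand, namely each other and the read-through gene Gm28230. With genes on the opposite strand, Hoxd3 shares 8.78% (in part with the noncoding RNA Haglr) and Hoxd4 11.8%. How the authors' counting divided such reads, and whether it used strand, is not given in the sources used here, so the Hoxd3 and Hoxd4 values are less certain than the rest. The smaller overlaps of Hoxd10 (5.73%) and Hoxd11 (10.8%) are with the transcript Gm28309.

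The start-site regions of the genes that differed most in opposite directions are shown. Their part in the gradient described below was not tested. They were taken from RefSeq on GRCm38.p6, run 5′ to 3′ on the strand of the gene, and hold 250 bases before and 50 after the start. Entries were found for all 9 HoxD genes and for Evx2. In GENCODE M21 Hoxd4 begins at chr2:74711929, near the start of Hoxd3 at chr2:74711927. The region listed for Hoxd4 may therefore not hold its only start. Capitals mark matches, on either strand, to CAATAAA, a sequence preferred by HOX13 proteins, and to TGACAG, a MEIS-type sequence. The coordinates are chr2:74667975-74668274 (plus strand) for Hoxd13, chr2:74659508-74659807 (minus strand) for Evx2, chr2:74721728-74722027 (plus strand) for Hoxd4 and chr2:74711743-74712042 (plus strand) for Hoxd3.
Hoxd13: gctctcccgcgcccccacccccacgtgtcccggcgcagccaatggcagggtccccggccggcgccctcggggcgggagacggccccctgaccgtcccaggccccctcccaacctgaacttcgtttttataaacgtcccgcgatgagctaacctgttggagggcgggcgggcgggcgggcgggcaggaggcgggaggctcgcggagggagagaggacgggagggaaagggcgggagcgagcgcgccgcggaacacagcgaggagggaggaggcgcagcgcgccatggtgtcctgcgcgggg
Evx2: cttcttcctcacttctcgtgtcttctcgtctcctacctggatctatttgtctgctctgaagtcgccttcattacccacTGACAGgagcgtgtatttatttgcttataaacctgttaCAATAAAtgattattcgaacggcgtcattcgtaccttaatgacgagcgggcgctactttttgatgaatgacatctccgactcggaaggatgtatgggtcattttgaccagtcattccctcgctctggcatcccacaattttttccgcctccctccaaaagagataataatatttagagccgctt
Hoxd4: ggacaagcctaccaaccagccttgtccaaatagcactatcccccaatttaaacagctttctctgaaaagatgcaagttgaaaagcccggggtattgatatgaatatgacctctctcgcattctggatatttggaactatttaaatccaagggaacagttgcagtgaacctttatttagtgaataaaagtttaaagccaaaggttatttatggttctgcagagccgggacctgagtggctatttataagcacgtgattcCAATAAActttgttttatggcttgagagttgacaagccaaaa
Hoxd3: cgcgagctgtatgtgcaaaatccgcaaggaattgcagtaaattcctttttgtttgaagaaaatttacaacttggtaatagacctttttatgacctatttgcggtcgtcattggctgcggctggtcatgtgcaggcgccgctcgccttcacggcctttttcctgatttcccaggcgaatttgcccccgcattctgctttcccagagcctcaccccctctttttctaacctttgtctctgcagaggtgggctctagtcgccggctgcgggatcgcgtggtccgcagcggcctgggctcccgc

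CAATAAA occurred in 4.6% of the 32851 start-site regions in the RefSeq table and TGACAG in 19.2%. At this locus CAATAAA was found in Evx2, 134 bases before the start, and in Hoxd4, 8 bases after it, and these matches overlap no other match. Evx2 was higher in anterior cells and Hoxd4 lower, so the sequence was present on both sides of the gradient. TGACAG was found only in Evx2 among these 10 genes. GACCACCC, a GLI-type sequence held by 0.8% of all regions, was in none of them. The palindromic homeodomain core TAATTA, held by 5.3%, was found in both regions listed for Hoxd11. Of the regions shown, that of Hoxd13 held 37 CpG dinucleotides, Evx2 16, Hoxd3 20 and Hoxd4 4, against a median of 7 over the table. These numbers did not follow the order of the log2 fold changes.

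Transcript levels were higher toward the 5′ end of the cluster in both populations, except for the steps from Hoxd10 to Hoxd11 in anterior cells and from Hoxd4 to Hoxd8 and Hoxd11 to Hoxd12 in central cells. The levels are in CPM, counts per 1 M counts of the library after TMM scaling, and were divided by the exonic length of the gene in kb to compare genes. On this scale the mean level in anterior cells was 0.053 for Hoxd1, 0.72 for Hoxd3, 5.90 for Hoxd4, 7.0 for Hoxd8, 29.7 for Hoxd9, 72.3 for Hoxd10, 65.9 for Hoxd11, 86.2 for Hoxd12 and 307 ± 49.2 for Hoxd13 (SD, n = 2). In central cells the same scale gave 0.152 for Hoxd1, 2.13 for Hoxd3, 9.79 for Hoxd4, 7.13 for Hoxd8, 23.2 for Hoxd9, 57.2 for Hoxd10, 57.6 for Hoxd11, 43.9 for Hoxd12 and 102 ± 29.97 for Hoxd13. Between genes next to each other in the order of levels, the ranges of mean ± SD overlapped for Hoxd4 and Hoxd8 in both populations, for Hoxd10 and Hoxd12 in anterior cells and for Hoxd10 and Hoxd11 in central cells. The place of Hoxd11 in this order depends on the gene model: with its protein-coding RefSeq transcript alone as the length, its level was 249.7 in anterior and 218.5 in central cells, next to Hoxd13 in the former and above it in the latter.

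**Figure D1:**
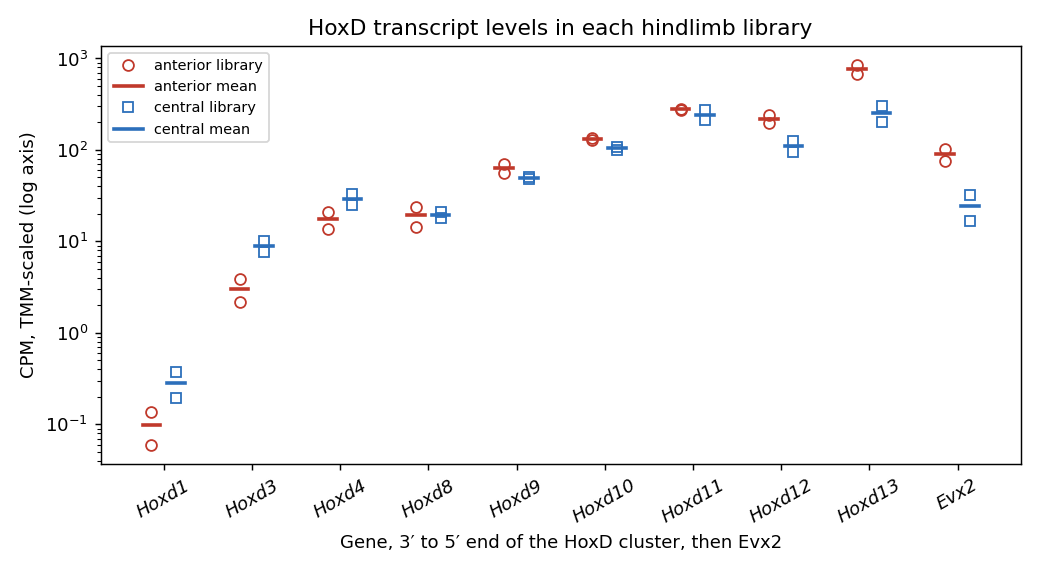
TMM-scaled CPM on a log axis for the 9 HoxD genes and Evx2, with each library as an open symbol (2 anterior, 2 central) and the group mean as a bar. The anterior symbols lie below the central ones for Hoxd1, Hoxd3 and Hoxd4 and above them for Hoxd9, Hoxd10, Hoxd12, Hoxd13 and Evx2.

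Anterior cells had more RNA of the 5′-most genes and less of the 3′ genes, with small or no differences in the middle. Of the 8 HoxD genes that passed the filter on low counts, 5 were called by edgeR's quasi-likelihood test at an adjusted p-value under 0.05, 3 of them higher in anterior cells (Hoxd10, Hoxd12, Hoxd13) and 2 lower (Hoxd3, Hoxd4). Over all 14610 tested genes 22.9% were called, 10.7% higher and 12.3% lower. The values of the populations did not overlap for 6 of the 8 genes, against 63.5% of all tested genes, so that share alone does not set the cluster apart. The median log2 fold change was 0.26 for the 8 genes and -0.0087 for all tested genes, and it hides the opposite changes at the ends. In bulk libraries, fewer cells with a transcript and less of it per cell cannot be told apart.

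Hoxd13, the last gene of the cluster and a main regulator of digit formation, measured 849.9 and 677 CPM in anterior cells and 305 and 200.2 CPM in central cells. Both anterior libraries lay above both central ones, by more than the spread within either population. The log2 fold change was 1.59 ± 0.18 (SE), a 3.02-fold rise, with an adjusted p by edgeR of 0.000404. Hoxd13 was among the 256 of 14610 tested genes with a log2 fold change at or above this value. Its partner in digit development, Hoxd12, measured 240.2 and 196.9 CPM against 126.5 and 95.7, and rose by 0.98 ± 0.13 (SE) on the log2 scale (adjusted p by edgeR 0.00123). Evx2, outside the cluster, measured 103 and 75.3 CPM against 32.2 and 16.7, again without overlap. Its log2 fold change of 1.87 ± 0.26 (SE; adjusted p by edgeR 0.00135) was above that of Hoxd13. The difference between these fold changes was not tested with a model. The calls of Hoxd13, Hoxd12 and Evx2 held in each of the 15 alternatives run for each gene.

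Hoxd11, which patterns the shank with its paralogues, and Hoxd10, which patterns the thigh with its own, differed little. Hoxd11 measured 274 and 281 CPM in anterior cells and 211 and 274 CPM in central cells, so the populations overlapped. It was not called (log2 fold change 0.19 ± 0.11 SE, adjusted p by edgeR 0.246). The log2 fold change was 0.40 without central replicate 2 and 0.018 without central replicate 1, so it depended on which central library was kept. Hoxd10 measured 134 and 129 CPM against 100.5 and 107, and rose by 0.34 ± 0.07 (SE) on the log2 scale (adjusted p by edgeR 0.0091). This call was lost without anterior replicate 1 (log2 fold change 0.31, adjusted p-value 0.0714) and when libraries were scaled to the limb mesenchyme genes Prrx1, Prrx2, Twist1 and Pdgfra (0.21, 0.205).

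Hoxd9, a group 9 gene known for its part in early limb bud patterning, had 56.5 and 70.6 CPM in anterior and 48.1 and 51.2 CPM in central libraries. The anterior libraries were both higher, with a log2 fold change of 0.36 ± 0.11 (SE), but the adjusted p by edgeR of 0.051 lay just outside the threshold. It passed under 6 of the 15 alternatives, among them the fits without anterior replicate 1 (log2 fold change 0.51, adjusted p-value 0.00789) and without central replicate 2 (0.40, 0.0171), and across the alternatives the adjusted p-value ranged from 0.00789 to 0.375. For Hoxd8 the anterior libraries measured 14.5 and 23.9 CPM, on both sides of the central values of 18.1 and 21.1 CPM. Its log2 fold change was -0.031 ± 0.21 (SE; adjusted p by edgeR 0.933), and without anterior replicate 1 it was 0.29.

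The 3′ genes Hoxd4 and Hoxd3, used early and further from the limb tip, were lower in anterior cells. Hoxd4 measured 13.7 and 21.1 CPM against 24.7 and 33.02 in central cells, and fell by 0.74 ± 0.21 (SE) on the log2 scale (adjusted p by edgeR 0.0348). Anterior replicate 2 and central replicate 1 came close to each other, and the call was lost without anterior replicate 1 (log2 fold change -0.45, adjusted p-value 0.105) and without central replicate 2 (-0.51, 0.0666). Hoxd3 measured 2.19 and 3.85 CPM against 7.63 and 10.2 CPM. The populations were apart, with a log2 fold change of -1.57 ± 0.31 (SE; adjusted p by edgeR 0.00711), close in size to the rise of Hoxd13 and opposite in direction. Hoxd1, the 3′-most gene, was near the limit of detection, with 2 and 4 counts in anterior cells and 6 and 12 counts in central cells. It did not pass the filter on low counts, and with every gene of at least 1 count kept it was not called (adjusted p by edgeR 0.521). Counts this low, near the floor of 3 counts or 0.0902 to 0.0997 CPM, do not allow a statement on its direction.

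Along the chromosome the log2 fold changes formed a gradient. As a description over the 8 tested HoxD genes, which share the same 4 libraries, Spearman's rho between the order in the cluster and the log2 fold change was 0.90. The order is broken in the middle, where Hoxd11 lay below Hoxd10 and Hoxd10 slightly below Hoxd9. Beyond the 5′ end of the cluster, Lnpk, the next gene beyond Evx2 and a resident of the endoplasmic reticulum, measured 129 and 107 CPM against 79.3 and 67.3, and rose by 0.69 ± 0.11 (SE) on the log2 scale (adjusted p by edgeR 0.00284). The next genes, Atp5g3, encoding a subunit of mitochondrial ATP synthase, and the transcription factor gene Atf2, rose by 0.32 and 0.22 on the log2 scale, with adjusted p-values by edgeR of 0.0242 and 0.0377. Both calls were lost with the mesenchyme scaling (0.20 and 0.099 on the log2 scale, adjusted p by edgeR 0.241 and 0.591). Without anterior replicate 2 they were lost too (0.25 and 0.24 on the log2 scale). Of the 15 alternatives, 3 lost the call of Atp5g3 and 7 that of Atf2. The latter included library size alone and upper-quartile factors (adjusted p by edgeR 0.07 and 0.0664), and leaving out anterior replicate 1 or central replicate 1.

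**Figure D2:**
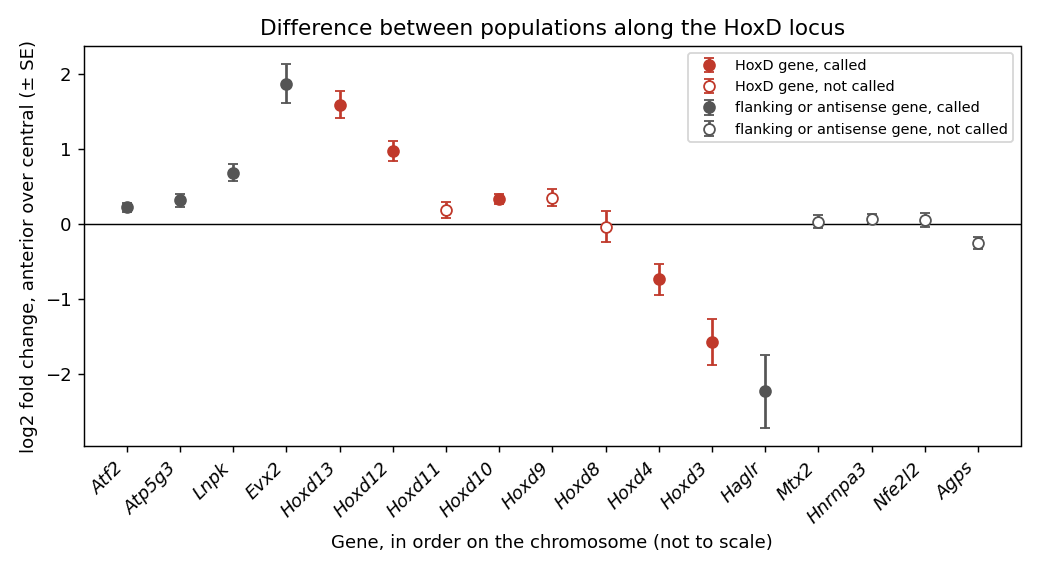
Log2 fold change of anterior over central cells, with its SE, for the HoxD genes (red) and genes around them (grey) in their order on the chromosome, not to scale. Filled symbols passed the edgeR threshold. Values go down from 1.87 at Evx2 to -2.23 at Haglr, except that Hoxd11 (0.19) lies below Hoxd10 (0.34) and Hoxd10 below Hoxd9 (0.36), and lie between -0.25 and 0.065 from Mtx2 to Agps.

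At the 3′ end, the noncoding RNA Haglr is read from the opposite strand and comes between Hoxd3 and Hoxd1 in chromosome order. Its exons overlap those of Hoxd3, so with the strand setting unknown its value is less certain too. Haglr had 12 and 11 counts in anterior cells and 50 and 60 in central cells. That is 0.36 and 0.37 CPM against 1.62 and 1.85, a log2 fold change of -2.23 ± 0.49 (SE; adjusted p by edgeR 0.0123), and the call was lost without central replicate 2 (adjusted p-value 0.0603). Beyond Hoxd1 the ubiquitous genes Mtx2, Hnrnpa3 and Nfe2l2 had overlapping values in the populations and log2 fold changes of 0.033, 0.065 and 0.055. Agps measured 123 and 127 CPM against 138 and 159 and narrowly missed the threshold (log2 fold change -0.25, adjusted p by edgeR 0.0554). It passed under 9 of the 15 alternatives, among them the mesenchyme scaling (adjusted p by edgeR 0.0311) and library size alone (0.0361). Of the 9 tested flanking and antisense genes listed, 4 were called higher and 1 lower, against 10.7% and 12.3% of all tested genes. The split was 2 higher and 2 lower with the mesenchyme scaling, and without anterior replicate 2 it was 2 higher and 1 lower.

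Together the 9 HoxD genes took 0.159% and 0.137% of all counts in anterior cells and 0.0854% and 0.0799% in central cells. Most of the surplus in anterior cells was Hoxd13. Its share of the HoxD counts was 53.6% (95% exact binomial interval 53.2% to 54.0%) and 48.3% (47.8% to 48.7%) in anterior cells, and 36.3% (35.7% to 36.9%) and 25.2% (24.7% to 25.8%) in central cells. These intervals cover counting error only and treat each count as independent, so they are too narrow if both mates of a read pair were counted. The mean shares differed by 20.2 percentage points, and the populations did not overlap. Hoxd11 fell behind Hoxd13 in this make-up, at 17.3% and 20.0% in anterior cells against 25.1% and 34.6% in central cells. In central replicate 2 Hoxd11 had the largest share of all. Unless stated, shares here are of counts, not corrected for gene length. Per kb of exonic length that library had 80.6 CPM of Hoxd13 against 65.1 of Hoxd11. With the RefSeq transcript alone as the length, Hoxd11 lay above Hoxd13 in the central mean (218.5 against 101.8). Corrected for exonic length, the Hoxd13 share was 55.9% and 50.7% in anterior and 38.7% and 28.0% in central cells. By transcript length it was 43.0% and 37.6% against 26.7% and 17.0%. The share of Hoxd12, at 15.2% and 14.04% against 15.0% and 12.1%, overlapped between the populations. Hoxd3 and Hoxd4 together held little, the former 0.138% and 0.275% in anterior and 0.906% and 1.28% in central cells, the latter 0.863% and 1.504% against 2.93% and 4.16%.

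**Figure D3:**
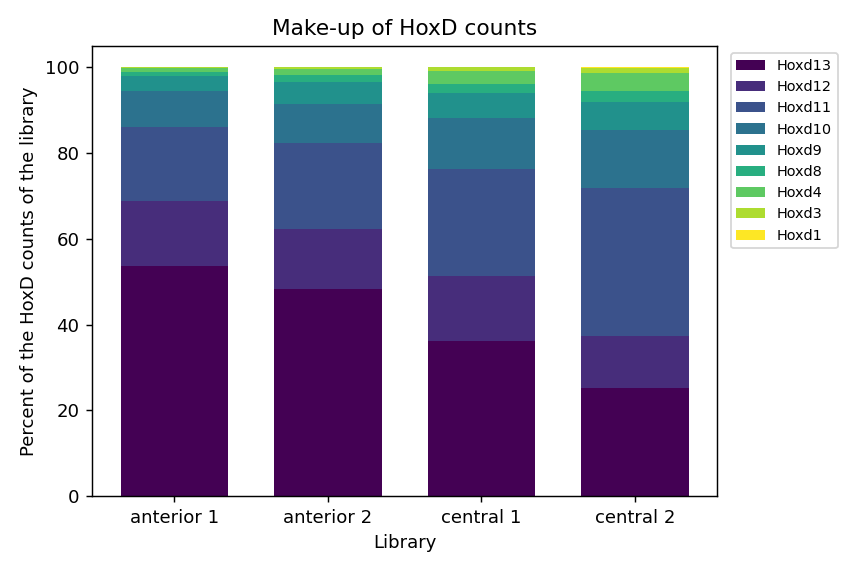
Percent of the HoxD counts of each library that fall on each of the 9 genes, stacked with Hoxd13 at the bottom, for 2 anterior and 2 central libraries. Hoxd13 takes 53.6% and 48.3% in anterior cells and 36.3% and 25.2% in central cells.

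Ratios of neighbouring genes within a library do not depend on how libraries are scaled. The log2 ratio of the Hoxd13 to the Hoxd12 count was 1.82 and 1.78 in anterior cells and 1.27 and 1.06 in central cells. For Hoxd12 to Hoxd11 the log2 ratios were -0.19 and -0.51 against -0.74 and -1.52, also apart. In the middle of the cluster the ratios overlapped between populations, with Hoxd11 to Hoxd10 at 1.03 and 1.13 against 1.07 and 1.35, and Hoxd10 to Hoxd9 at 1.25 and 0.87 against 1.06 and 1.07. Toward the 3′ end they were apart again. Hoxd8 to Hoxd4 stood at 0.089 and 0.18 against -0.45 and -0.65, and Hoxd4 to Hoxd3 at 2.64 and 2.45 against 1.70 and 1.70. Over the longer step from Hoxd11 to Hoxd13, which takes in the change from leg to digit genes, the ratio was 1.63 and 1.27 in anterior cells and 0.53 and -0.45 in central cells. The mean difference was 1.41 on the log2 scale, and 0.92 without central replicate 2, which moves it by more than 1.5 times. By CPM, 63.5% of all tested genes were apart between the populations. Of the 10 ratios computed, 7 were apart, so this number alone does not set the cluster apart. An exact two-sided permutation test over 2 against 2 libraries cannot give a p-value below 0.333, which each of those 7 and the Hoxd13 share reached (0.476 after Benjamini-Hochberg adjustment over the 10 ratios). This test therefore cannot call any of the ratios, and no model was fitted to them.

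The same ends of the cluster also differed between replicates of one population. Replicate 1 had more Hoxd13 than replicate 2 in both anterior and central cells, by 0.33 and 0.61 on the log2 CPM scale. Evx2 (0.45 and 0.95) and Hoxd12 (0.29 and 0.40) went the same way. Hoxd3 (-0.82 and -0.42), Hoxd4 (-0.63 and -0.42) and Hoxd8 (-0.71 and -0.22) were lower in replicate 1 in both. The sign was shared by 7 of the 8 tested HoxD genes, with Hoxd10 the exception, whereas 50.5% of all tested genes shared it. Over these 8 genes, which come from the same 4 libraries, the replicate differences of the populations correlated at 0.79 (Pearson) and 0.79 (Spearman), a description without a test. The median absolute difference between replicates over tested genes was 0.121 in anterior and 0.147 in central cells, below that of each of Hoxd3, Hoxd4, Hoxd8, Hoxd12, Hoxd13 and Evx2. Whether same-numbered libraries share embryos or a day of collection is not given in the sources used here, and no cause of the shared differences was tested.

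**Figure D4:**
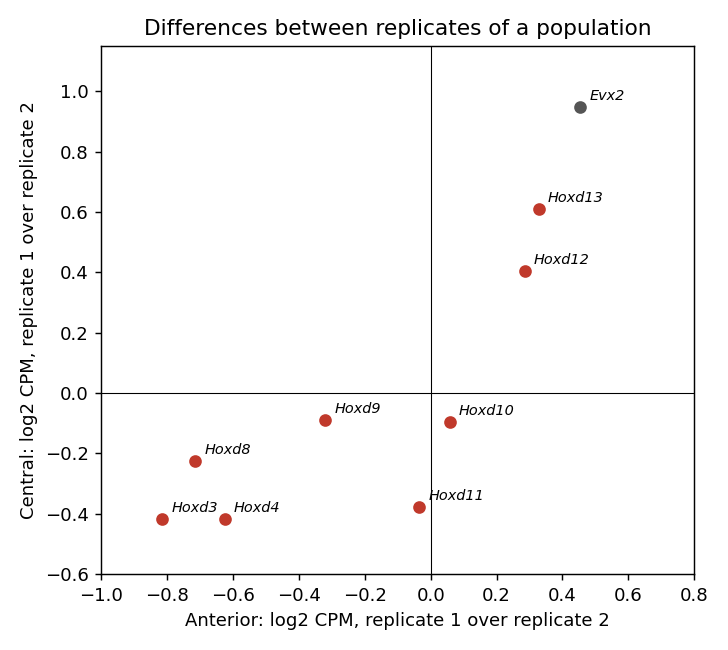
Log2 ratio of CPM in replicate 1 over replicate 2, anterior cells on the x axis and central cells on the y axis, for the 8 tested HoxD genes (red) and Evx2 (grey). Hoxd12, Hoxd13 and Evx2 lie in the upper right, and Hoxd3, Hoxd4, Hoxd8, Hoxd9 and Hoxd11 in the lower left.

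The matching genes of the other Hox clusters were set beside HoxD by paralogue group, since genes of one group encode similar proteins and partly replace each other in the limb. Of 9 tested members of groups 9 to 13 outside HoxD, 4 were called higher (Hoxa9, Hoxa10, Hoxa13, Hoxb9). Another 3 were called lower (Hoxc10, Hoxc11, Hoxc13), where all tested genes gave 10.7% higher and 12.3% lower. The split turned to 2 higher and 4 lower with the mesenchyme scaling and without anterior replicate 2, where the calls of Hoxa9 and Hoxa10 were lost and Hoxc9 was called lower. Without anterior replicate 1 the call of Hoxb9 was lost (adjusted p by edgeR 0.0812), and without central replicate 2 Hoxc9 was called (0.0474). Hoxa13, which acts with Hoxd13 in the foot plate, measured 155 and 161 CPM in anterior and 52.7 and 40.7 CPM in central libraries. Its rise of 1.76 ± 0.11 (SE) on the log2 scale (adjusted p by edgeR 1.60e-05) was near that of Hoxd13. Within libraries the log2 ratio of Hoxd13 to Hoxa13 was 2.45 and 2.07 in anterior and 2.53 and 2.30 in central cells, with overlap (mean difference -0.15, exact permutation p-value 0.667). Hoxa11, at 87.6 and 111 CPM against 91.3 and 91.2, overlapped between populations as Hoxd11 did. The HoxC genes that were called were lower in anterior cells. Hoxc11 measured 11.5 and 13.1 CPM against 32.4 and 42.6 (log2 fold change -1.61, adjusted p by edgeR 0.000137), and Hoxc10 51.2 and 73.1 against 108 and 101.9 (-0.76, 0.006). Hoxc13 had only 4 and 4 counts in anterior cells, near the floor of 3, and 36 and 90 in central cells. It was not tested where a mean count of at least 50 was required, which left 8 paralogues tested and 2 called lower.

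Genes with the profile most like that of Hoxd13 were ranked. By Euclidean distance between log2 CPM profiles over the 4 libraries, each centred on its own mean, the nearest of 14602 genes outside the cluster were Bmp5 (distance 0.183), Abcb1b (0.19), Ngfr (0.203), Fgf13 (0.212) and Hottip (0.221). Hottip, a noncoding RNA at the Hoxa13 end of HoxA, measured 53.0 and 47.1 CPM in anterior and 17.1 and 12.6 CPM in central libraries. Bmp5, a BMP ligand, measured 21.3 and 19.3 CPM against 7.40 and 5.44. The nearest to Hoxd9 were Nme4, Mfsd5 and Dnase1l1, at distances of 0.0521 to 0.0633.

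MEIS, PBX and PKNOX proteins bind DNA together with HOX proteins, and MEIS genes mark the proximal limb. Of the 9 genes of these families, all tested, 5 were called lower in anterior cells and none higher, while 8 were called without central replicate 2 (7 lower, 1 higher). Meis1 measured 5.996 and 1.77 CPM against 95.04 and 79.9 (log2 fold change -4.46, adjusted p by edgeR 4.86e-05) and Meis2 11.03 and 2.05 against 128 and 131 (-4.27, 0.000329). On the log2 scale Pknox2 fell by 1.25 and Pbx3 fell by 0.62 (adjusted p by edgeR 0.000281 and 0.00368). For comparison with the calls on this list, 12.3% of all tested genes were called lower and 10.7% higher.

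Of 16 genes known to regulate HoxD or to encode chromatin and looping factors, 5 were called higher and 1 lower. The shares over all tested genes were 10.7% higher and 12.3% lower. Gli3, whose repressor form restrains the 5′ genes, was higher in anterior cells along with Hoxd13, at 314 and 379 CPM against 196.5 and 198.5 (log2 fold change 0.81, adjusted p by edgeR 0.00034). The counts do not separate its activator and repressor proteins. Shh, which relieves GLI3 repression, measured 27.4 and 11.7 CPM against 13.2 and 12.2, with overlap (adjusted p by edgeR 0.203). Hand2, a posterior regulator that promotes Shh, fell by 0.78 on the log2 scale (adjusted p-value 0.00402). The Polycomb gene Suz12 (0.32), the looping factor genes Rad21 (0.25) and Ctcf (0.24), and Gdf11, a ligand known to activate posterior Hox genes (0.24), had small rises on the log2 scale, with adjusted p-values by edgeR of 0.00934 to 0.0293. The number called on this list was 2 with the mesenchyme scaling and 2 without anterior replicate 1.

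Over all tested genes 10.7% were called higher and 12.3% lower. Genes linked to HOXA13 or HOXD13 control in limbs did not share a direction. Of 7 tested, 1 was called higher and 2 lower, with 5 called in each fit that left out anterior replicate 1, anterior replicate 2 or central replicate 2. Bmp7, a BMP ligand of the foot plate, measured 98.3 and 95.4 CPM against 67.8 and 68.5 (log2 fold change 0.51, adjusted p by edgeR 0.00139). Epha7, an ephrin receptor gene, fell from 102 and 94.96 CPM in central to 21.1 and 16.8 CPM in anterior cells (log2 fold change -2.37, adjusted p by edgeR 3.98e-06). Bmp2 (33.8 and 12.2 against 17.9 and 15.0 CPM), the retinoic acid synthesis gene Aldh1a2 (29.98 and 9.82 against 37.7 and 25.6 CPM) and Runx2 (14.8 and 9.44 against 21.9 and 13.1 CPM) overlapped between populations and were not called.

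Markers of limb position and cell type, listed with earlier results of these data known, also differed between the populations. Among all tested genes, for comparison, 10.7% were called higher and 12.3% lower. The 5 distal limb markers (Lhx2, Lhx9, Msx1, Tfap2b, Sall3) were all called higher, with a summed level of 1419.4 and 1419.7 CPM in anterior and 296 and 271 CPM in central libraries. The 5 proximal markers (Meis1, Meis2, Irx3, Irx5, Shox2) were all called lower, at 97.4 and 62.2 against 769.8 and 744 CPM. The summed limb mesenchyme markers lay between 2231 and 2429.9 CPM in all 4 libraries, although of its 6 genes Prrx2 and Twist1 were called higher and Pdgfra lower. Markers of other cell types also differed. The 6 erythroid markers summed to 3248 and 8294 CPM in anterior and 3.54 and 6.70 CPM in central libraries. The 6 myogenic markers summed to 4.17 and 2.35 against 141 and 142 CPM, with Myog at 0 in both anterior libraries. The 7 ectoderm markers summed to 9.71 and 10.1 against 46.5 and 145 CPM, the 6 endothelial ones to 5.13 and 9.03 against 23.9 and 34.9 CPM, and the 5 cartilage ones to 357 and 265 against 1337 and 1062 CPM. Sox10 and Foxd3, which define neural crest derivatives, were at 0 in both anterior libraries, where the 4 neural crest markers summed to 5.34 and 4.98 CPM against 9.90 and 9.27 CPM. The 4 white cell markers summed to 11.8 and 9.24 against 5.71 and 5.16 CPM. Among them only Csf1r was called, at 8.45 and 5.49 against 2.21 and 2.29 CPM. Ptprc, Tyrobp and Fcer1g were not called, with Ptprc at 1.56 and 1.43 against 1.75 and 1.48 CPM. The part of these differences in the HoxD values was not tested. Scaling to mesenchyme genes cannot test it, because it shifts every gene of a library alike. Of the genes used for it, Prrx2, Twist1 and Pdgfra were themselves called. With that scaling the median log2 fold change of all genes was -0.13, that of Hoxd13 was 1.48 and that of Hoxd3 was -1.69, both called.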

How the data were processed

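RNA from 4 libraries was paired-end sequenced by a commercial provider, per the labels' protocols. The authors deposited whole-number read counts per gene symbol, not normalized; the submitters' processing notes name STAR 2.7.9a, HTSeq, DESeq2 and the build mm10, without roles, and the annotation and strand setting are not given in the sources used here. Group and replicate come from the sample titles. Library totals were 30080925 to 33257383 counts, and 72.8% to 75.6% of counts from 1 to 10 were even, the pattern of counting both mates, so totals overstate fragments.

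Counts were fitted with edgeR 4.0.16 in R 4.3.3 (filterByExpr defaults, TMM factors, quasi-likelihood F test, Benjamini-Hochberg adjustment over 14610 genes, threshold 0.05, 2 residual degrees of freedom). The SE is the absolute log2 fold change over the square root of F. The fits were also run on simulated counts with 200 changed genes, fewer than the 3351 called in these data. That run does not measure error rates in these data. Exonic lengths are unions of GENCODE M21 exons.

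The alternatives were DESeq2 1.42.0 size factors and Wald test, limma-voom (limma 3.58.1), other scalings, filters and thresholds, a replicate block and leaving out each library, with halved counts added after seeing the data. The 9 genes and all lists were chosen with earlier results of these data known. All 9 were named with their values. By rule, listed genes with at least 1 count could be named (for cofactors and regulators, up to 5 by smallest p-value, besides Gdf11, which was named after its values were seen), as could the nearest profiles to Hoxd13 (5) and Hoxd9 (3). The listed gene Haglros was not analysed here, and 1 gene that met the naming rule is not reported here.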

Additional observations from a re-analysis of the deposited data

How the results depend on the processing

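Over the scalings, tests, filters, block and halved counts, 4 to 6 HoxD genes were called and the count over all genes stayed within 1.5 times of 3351. Scaling to mesenchyme genes moved the median log2 fold change of all genes from -0.0087 to -0.132 and the part of the calls that was higher from 46.5% to 22.3% (708 of 3178 calls), and left 2 regulators called. At an adjusted p-value under 0.01 the counts were 1690 genes in all, 2 flanking genes, 4 paralogues (1 higher, 3 lower) and 3 regulators, a stricter criterion. The cause was not tested for the other changes given here.

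Replicate numbers are shared by the populations in the titles only, so same-numbered libraries were not taken as pairs in the main fit. Replicate differences correlated at 0.046 across genes and at 0.79 (Pearson) over the 8 tested HoxD genes. The biological coefficient of variation, edgeR's measure of spread between libraries, was 0.111 without the replicate block and 0.0906 with it. Whether same-numbered libraries are pairs was not tested. With the replicate block 3586 genes were called in all, among them 6 HoxD genes including Hoxd9 (adjusted p by edgeR 0.0195), and 5 HOX13 linked targets. The other HoxD calls did not change.

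Fits without 1 library leave 1 residual degree of freedom and assume that the lone library of a group varies like the others. They called 2009 (without anterior replicate 2) to 3697 genes, 4 to 6 HoxD genes, 3 to 5 flanking genes, 5 to 8 cofactors, 2 to 8 regulators and 3 to 5 targets, and gave a HoxD median from 0.018 (without central replicate 1) to 0.39. Hoxd8 ranged from -0.42 to 0.29, with a change of sign without anterior replicate 1 (0.29) and without central replicate 2 (0.088), and was called in neither. The HoxD median of 0.018 was taken over 9 genes, because Hoxd1 (-1.89) passed the filter in that fit, and the median of 0.39 over 8. The 2 medians are therefore not over the same genes. The Hoxd13 share differed by 14.7 to 25.7 percentage points and the Hoxd13 to Hoxd11 log2 ratio by 0.92 to 1.91. Depth limits Hoxd1, and 2 libraries per population limit every call close to the threshold.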
